A study of Mus musculus with 67 samples.

Results

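The 9 genes Actb, Actg1, Tmsb4x, Tmsb10, Cfl1, Pfn1, Ezr, Vil1 and Myl6 encode actins and proteins that bind actin or act on its filaments. They are 9 of 25006 genes in the table, were taken by name, and were chosen by the level of Actb, which differed over 100-fold between the 23 groups. The question was whether the other 8 moved with it. The levels of Actb are therefore given as a description, with no test. All 9 were among the 15567 genes kept for testing, which reached 1 TPM (transcripts scaled by length to a fixed total per library) in 3 libraries or more. Vil1 passed that filter mainly through its endoderm libraries and was at or near 0 in most others.

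The study followed wild-type mouse embryos around implantation, and its design text names a reporter line with EGFP under the Pdgfra promoter that helped to isolate the lineages. The groups of E3.5 were inner cell mass (ICM) and trophectoderm (TE), and TE was also taken at E4.5. Epiblast (Epi) was taken at 5 ages up to E5.5, the youngest E4.5, and primitive endoderm (PrE) at the same ages without E5.5. The trophoblast of E4.75 and E5.5 came as extra-embryonic ectoderm (ExE) and as trophoblast giant cells (TGC, at E5.5 from culture only). Visceral endoderm of E5.5 came as VE in vitro and, in vivo, as the 2 groups labelled VE_Epi and VE_ExE. Epi and ExE of E5.5 came both in vivo, from embryos dissected out of the decidua, and in vitro, from embryos grown in a gel of extracellular matrix. Epi of E5.0 and E5.25 came with an in vivo suffix and without one, and the latter are called unsuffixed here because the labels do not say how those embryos were kept. The groups before E5.0 and all PrE groups carry no suffix either. Each library was made by Smart-seq2, which amplifies full-length cDNA, from a small pool of lysed cells. A lower level can therefore mean fewer cells of a type in the pool or less RNA per cell, and these cannot be told apart. There were 19 groups of 3 libraries, 3 of 2 (Epi, ExE and VE_Epi in vivo at E5.5) and 1 of 4 (TGC of E5.5).

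Actin is held in cells as monomers and as filaments, and cells shift between these states to move, divide and keep their shape. Thymosins hold monomers in reserve, profilin loads them onto growing ends, cofilin cuts old filaments, the Arp2/3 complex starts branches, and non-muscle myosin pulls on the filaments. In the implanting embryo the visceral endoderm carries a brush of microvilli, where ezrin ties filaments to the membrane and villin bundles them, and the trophoblast spreads into the uterine wall.

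A library held 8423 to 12644 genes at 1 TPM or more. Summed endoderm markers (8 genes) ran from 2458 to 9923 TPM in the 7 PrE and VE groups and from 4.55 to 798 TPM in the other 16, of which ExE of E5.5 in vitro had the most. Epiblast markers (7 genes) ran from 158 to 1699.5 TPM in ICM and Epi, and the lowest of these, in vivo Epi of E5.0, lay under 4 groups of other tissues. Trophoblast markers (8 genes) ran from 1712 to 116140.0 TPM in TE, ExE and TGC, and 2 groups of other tissues, PrE of E5.25 and VE of E5.5 in vitro, lay above the lowest of these, ExE of E5.5 in vivo. Markers of uterine stroma and smooth muscle (8 genes) summed to at most 69.2 TPM in a group and those of blood (4 genes in the table) to at most 17.7 TPM. The ribosomal precursor Rn45s stood apart in 3 groups, with 22.0% of all TPM in Epi of E4.5, 17.6% in PrE of E4.5 and 9.33% in in vivo Epi of E5.0, and at most 1.01% in any other group.

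Actb (chromosome 5, 142903115 to 142906754) and Actg1 (chromosome 11, 120345690 to 120348542), both on the minus strand of GRCm38, encode cytoplasmic β- and γ-actin, which are nearly the same protein. Their first 60 coding bases, in exon 2 of each, are shown because they hold the codons where the proteins part and because the 2 genes went separate ways in these tissues. Capitals mark the bases that differ between the genes.
Actb, chr5:142905627-142905686, minus strand: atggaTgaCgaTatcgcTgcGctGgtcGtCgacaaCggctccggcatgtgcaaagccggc
Actg1, chr11:120348032-120348091, minus strand: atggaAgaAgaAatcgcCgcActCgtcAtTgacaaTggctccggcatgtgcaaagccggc

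Of these bases 9 differed, and over the whole 1128 coding bases 128 differed, an identity of 88.7%. The longest run without a difference was 62 bases, and 2.78% of 50-base windows were the same in both genes. How reads with several matches were treated is not given in the sources used here, so reads from such windows, or from processed copies of either gene, could be credited to the wrong gene.

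Actb was lowest in in vivo Epi of E5.0, at 517, 499.7 and 546 TPM. It was highest in VE_ExE of E5.5 in vivo, at 96648, 153742 and 146372 TPM. The means of these 2 groups, 521 and 132254 TPM, were 254-fold apart. Next to the bottom were the groups of E4.5, which overlapped each other. Epi of E4.5 read 1070.2, 1323 and 1324 TPM. PrE of E4.5 read 1503, 1307 and 1336 TPM. The 3 groups of lowest Actb were thus the 3 of largest Rn45s share, and the part of Rn45s in their levels was not tested. Above them came in vivo Epi of E5.25 at 3999.7, ICM at 4468, and unsuffixed Epi of E5.25 and E5.0 at 5568 and 6077 TPM. The middle of the order held PrE of E5.0, TE of E3.5 and E4.5, and Epi and PrE of E4.75, with means from 8529.8 to 9396 TPM. PrE of E5.25 (12219 TPM), cultured Epi of E5.5 (13731 TPM), ExE of E4.75 (14397 TPM) and TGC of E4.75 (19860.1 TPM) followed.

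The other 7 groups of E5.5 stood at the top. VE in vitro had a mean of 30198, ExE in vitro of 37449.9 and TGC in vitro of 56736 TPM. In vivo, Epi read 53904 and 62222 TPM, ExE 67243 and 56197 TPM and VE_Epi 98865 and 104144 TPM. Actb ranked first among all genes in ExE of E4.75 and in 6 of the 8 groups of E5.5, and 345th in in vivo Epi of E5.0. Of the 22 pairs of neighbours in this order 13 overlapped in their libraries and 9 did not. Libraries of 1 group could also lie far apart. Unsuffixed Epi of E5.0 read 8431, 5126 and 4674 TPM. PrE of E5.0 read 11629, 6919 and 7041 TPM, so that in both groups 1 library, replicate 1, lay well above the other 2.

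**Figure D1:**
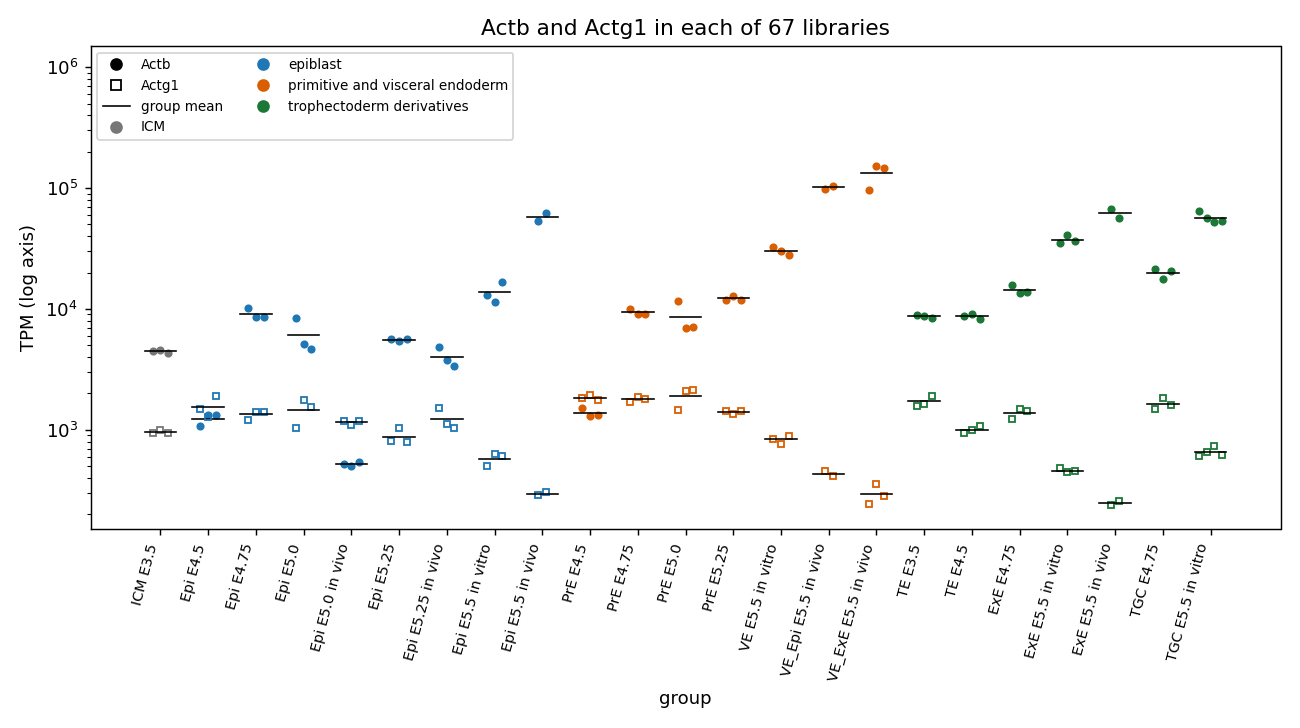
Actb (filled circles) and Actg1 (open squares) in the 23 groups, in TPM on a log axis, with 1 point per library, a line at each group mean, colours by tissue and groups ordered by tissue. Actb runs from 521 TPM in in vivo Epi of E5.0 to 132254 TPM in VE_ExE, while Actg1 stays between 249 and 1909 TPM and is lowest in the groups of E5.5.

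Actg1 did not follow Actb, and its group means spanned 7.67-fold. It was lowest in ExE of E5.5 in vivo, at 238 and 259.5 TPM. VE_ExE read 242, 353 and 285 TPM and Epi of E5.5 in vivo 287 and 307 TPM. The 8 groups of E5.5 were the 8 lowest in Actg1, while 7 of them were the 7 highest in Actb. At the other end, PrE of E5.0 read 1469.9, 2115 and 2143 TPM and PrE of E4.5 1832, 1946 and 1767 TPM. Neighbours in the order of Actg1 overlapped in 18 of 22 pairs. Actg1 exceeded Actb in 3 groups, where the ratio of Actb to Actg1 was 0.451 ± 0.0124 (SD, n = 3, in vivo Epi of E5.0), 0.749 ± 0.0746 (SD, n = 3, PrE of E4.5) and 0.817 ± 0.194 (SD, n = 3, Epi of E4.5). Over all groups the median ratio was 8.67, and it reached 249 ± 46.6 (SD, n = 2) in ExE of E5.5 in vivo and 449.6 ± 58.0 (SD, n = 3) in VE_ExE. In unsuffixed Epi of E5.0 the library with the most Actb had the least Actg1, with 1033, 1769 and 1539.7 TPM in the order given above, and the same held in PrE of E5.0.

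Differences between groups were tested with limma on log2(TPM + 1), and a gene passed when its Benjamini-Hochberg p, adjusted over all genes, was under 0.05 and its log2 difference was 1 or more in size. Actg1 passed in 2 of 18 comparisons, as lower in both. Between Epi of E5.0 and E5.5 in vivo Actg1 fell from 1156 ± 51.4 TPM (SD, n = 3) to 297 ± 13.9 TPM (SD, n = 2). That difference was -1.96 ± 0.16 log2 (SE, limma adjusted p = 3.82e-15), where that of Actb was 6.79. In VE_ExE it was lower than in VE in vitro, which read 836 ± 63.5 TPM (SD, n = 3). That difference was -1.52 ± 0.14 log2 (SE, limma adjusted p = 1.01e-12), where Actb differed by 2.10. TPM of a library sum to a fixed total, so a larger share of 1 gene lowers the values of all others. Each library was therefore also rescaled to a total without Actb and Rn45s, and both falls of Actg1 passed there too, at -2.02 and -1.37 log2. With libraries scaled instead by the median ratio of their genes to the mean library, Actg1 also passed as higher in TGC than in ExE of E5.5 in vitro, at 1.51.

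Over the 18 comparisons and the 8 genes other than Actb, 41 of 144 pairs passed (28.5%), where on average 21.0% of all genes passed in a comparison. Several comparisons share a group, such as Epi of E4.75 or VE in vitro, and they are given side by side. In TE against ICM of E3.5, 4 of 8 passed against 13.5% of all genes. Tmsb4x, Tmsb10 and Myl6 were higher in TE and Ezr lower, and the median difference was 0.85 log2 over the 8 and -0.060 over all genes. In PrE against Epi 3 of 8 passed at E4.5 (28.6% of all genes), 3 at E4.75 (17%), 3 at E5.0 (24.5%) and 2 at E5.25 (21.1%, with 9.94% as higher). The Epi of these pairs was the unsuffixed group at E5.0 and E5.25, and in vivo Epi was not set against PrE. Vil1 was higher in PrE at all 4 ages and Myl6 at E5.0 and E5.25, while Tmsb4x was lower up to E5.0 and Tmsb10 at E4.5 and E4.75. The median over the 8 ran from 0.065 log2 at E5.0 to 0.51 at E5.25, and over all genes from -0.20 at E4.5 to -0.075 at E5.0.

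At E5.5 in vitro 3 of 8 passed in VE against Epi (28.6% of all genes), with Ezr and Vil1 higher and Tmsb10 lower in VE. In ExE against Epi Vil1 alone passed at E4.75, as higher (8.81% of all genes, 2.72% as higher). At E5.5 in vitro Tmsb4x, Ezr and Vil1 were higher in ExE (20.8% of all genes, 12.1% as higher). In TGC against ExE of E4.75 none of the 8 passed (4.36% of all genes), although 5 had an unadjusted limma p under 0.05. At E5.5 in vitro Tmsb4x and Tmsb10 were higher and Vil1 lower in TGC (37.8% of all genes). Under median-ratio scaling 7 of the 8 passed in that comparison instead of 3, and 4437 of all 15567 genes.

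Between embryos in vivo and in vitro at E5.5, Actb was higher in vivo in every pair, and none of the 8 passed as higher. In VE_ExE against VE in vitro, where Actb was 2.10 log2 higher, 5 of 8 were lower: Actg1, Tmsb10, Cfl1, Ezr and Vil1. Of all genes 33.9% passed there and 28% as lower, and the median was -1.08 over the 8 and -0.41 over all. All 8 had a negative difference, but under median-ratio scaling 2 of 8 passed, and 4421 of all 15567 genes. In VE_Epi against VE in vitro, where Actb was 1.75 log2 higher, Tmsb4x, Ezr and Vil1 were lower (18.1% of all genes, 12.8% as lower). Of these 1 passed under median-ratio scaling, and 2216 of all 15567 genes. In Epi in vivo against in vitro, where Actb was 2.09 log2 higher, none of the 8 passed (21.8% of all genes), although 6 had an adjusted and an unadjusted limma p under 0.05 at a smaller difference. In ExE, where Actb was 0.72 log2 higher, Vil1 alone passed, as lower (11.8% of all genes, 9.4% as lower). VE_ExE and VE_Epi, both in vivo, differed in Tmsb4x and Tmsb10 (16.3% of all genes).

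In Epi of E5.0 the in vivo group differed from the unsuffixed one by -3.49 log2 in Actb, and Ezr alone passed, as lower (25% of all genes, 23.1% as lower). At E5.25 Tmsb4x alone passed, as lower in vivo (10.7% of all genes, 7.99% as lower). From Epi of E5.0 to E5.5 in vivo, the step with the widest difference of Actb (6.79 log2), Actg1, Tmsb4x and Myl6 fell and none of the 8 rose. Of all genes 35.9% passed in that step and 11.2% as lower, and the median was -0.86 over the 8 and 0.043 over all. Under median-ratio scaling 6 of the 8 passed there, and 5701 of all 15567 genes. That scaling also moved the share of all passing genes that were higher: from 48.7% to 67.01% in TGC against ExE of E4.75, 16.6% to 50.9% in the same pair at E5.5, and 68.8% to 52.04% in the last step. In Epi in vivo it moved from 7.88% to 36.2% at E5.0, 25.3% to 35.96% at E5.25 and 30.9% to 44.9% at E5.5. In the other pairs of E5.5 it moved from 20.5% to 32.9% for ExE, 17.4% to 34.6% for VE_ExE and 29.4% to 52.7% for VE_Epi.

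**Figure D2:**
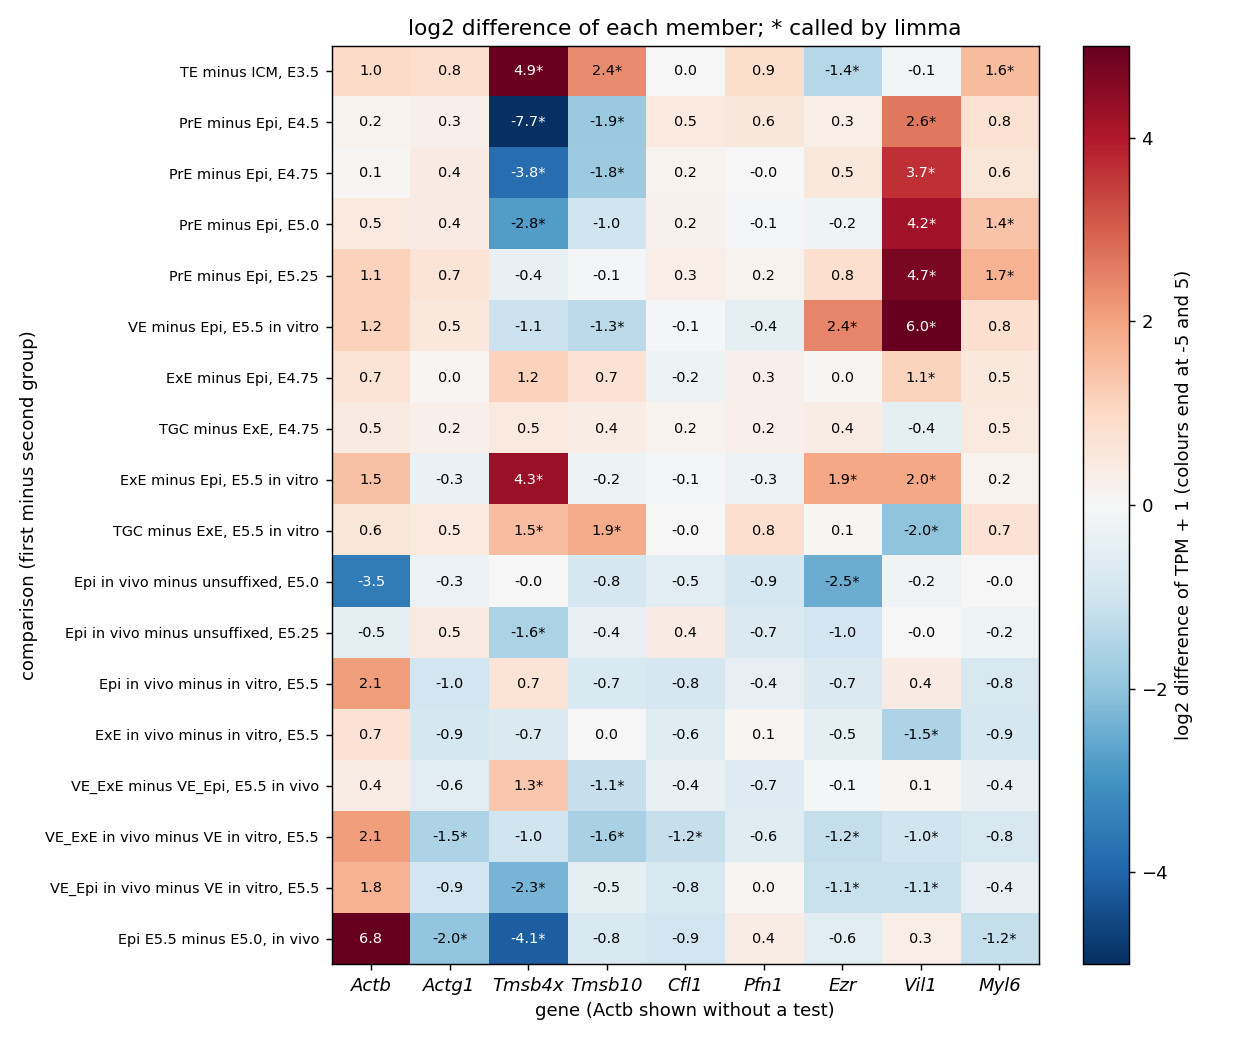
Differences of mean log2(TPM + 1) for the 9 genes (columns) in the 18 comparisons (first minus second group), coloured from blue (lower in the first group) to red (higher), with an asterisk where the limma test was passed and Actb shown without a test. Actb reaches 6.79 in Epi of E5.5 against E5.0 in vivo, where Actg1 is at -1.96, and Pfn1 stays within 1 of 0 on this scale.

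Across the 23 group means of log2(TPM + 1), Pearson's r with Actb was -0.73 for Cfl1, -0.71 for Actg1, -0.21 for Tmsb4x and -0.13 for Myl6. It was -0.11 for Tmsb10, 0.059 for Pfn1, 0.36 for Ezr and 0.36 for Vil1. Spearman's rho was -0.71 for Cfl1, -0.64 for Actg1, 0.40 for Vil1 and 0.29 for Ezr. The median r of the 8 was -0.12. Over all 15566 other genes kept the median was -0.00433, with -0.590 at the 5th and 0.709 at the 95th percentile. These values describe 23 groups that share tissues, ages and the fixed total of TPM, and no p is given. They differed between ages, a split chosen after the data were seen. Over the 15 groups before E5.5 the median of the 8 was 0.49 (all genes 0.12), with Pfn1 at 0.72, Tmsb10 at 0.66 and Myl6 at 0.64, and with Actg1 at 0.12 and Cfl1 at -0.079. Over the 8 groups of E5.5 it was -0.33 (all genes -0.23), with Actg1 at -0.57 and Cfl1 at -0.84. Without the 3 groups of largest Rn45s share the earlier groups numbered 12, and Actg1 read 0.53 and Cfl1 -0.14 over them. Among the members, Tmsb4x and Tmsb10 had r = 0.92, Actg1 and Cfl1 r = 0.89, and Tmsb4x and Vil1 r = -0.61 over the 23 groups.

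**Figure D3:**
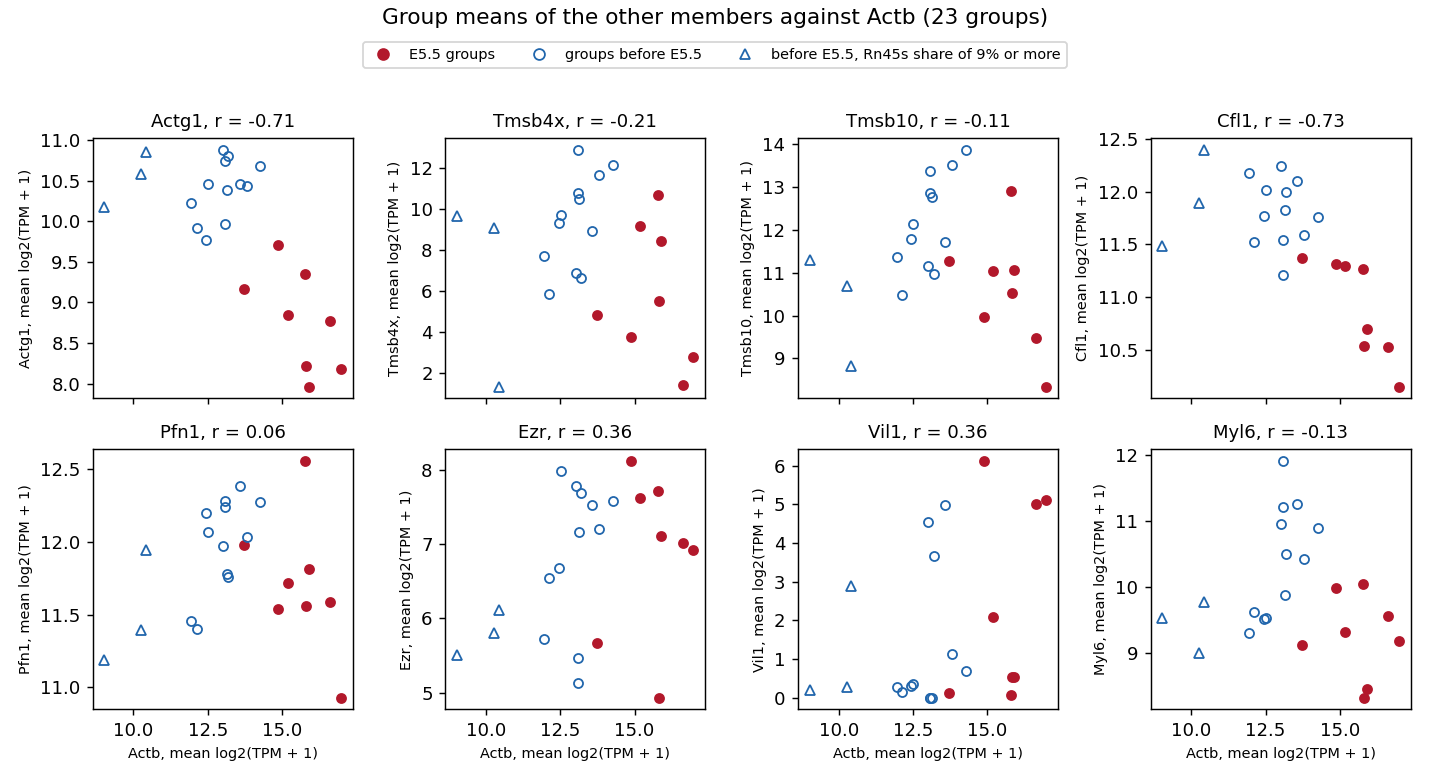
Group means of log2(TPM + 1) of each of the 8 other genes against that of Actb, with 1 point per group, filled for E5.5, open for earlier ages and triangles for the 3 groups of largest Rn45s share. Actg1 (r = -0.71) and Cfl1 (r = -0.73) are lowest in groups of E5.5 with high Actb, and Pfn1 (r = 0.059) is nearly level.

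Tmsb4x (chromosome X, 167207093 to 167209315) and Tmsb10 (chromosome 6, 72957347 to 72958748), on the minus strands, encode thymosins β4 and β10, small peptides that bind actin monomers and keep them out of filaments. Their first 60 coding bases, from exon 2 of Tmsb4x and exon 1 of Tmsb10, are shown because the pair kept the same tissues at both ends of its range with fewer bases in common than the actins. Capitals mark the bases that differ.
Tmsb4x, chrX:167207977-167208036, minus strand: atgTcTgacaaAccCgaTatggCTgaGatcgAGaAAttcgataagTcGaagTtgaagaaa
Tmsb10, chr6:72957953-72958012, minus strand: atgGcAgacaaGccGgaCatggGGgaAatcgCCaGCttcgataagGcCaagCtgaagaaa

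Over 135 coding bases 40 differed (identity 70.4%), and the longest run in common was 10 bases. The same 3 groups were highest for both genes, TE of E4.5 and ExE and TGC of E4.75, and the same 4 lowest, PrE of E4.5 and the 3 of visceral endoderm. Tmsb4x read 7590.1, 7709 and 6926 TPM in TE of E4.5, 4719, 4082 and 4808 TPM in TGC of E4.75 and 3463, 3118 and 3042 TPM in ExE of E4.75. In PrE of E4.5 it read 1.28, 2.19 and 1.29 TPM. VE_Epi read 0.413 and 4.15 TPM and VE in vitro 12.4, 16.1 and 9.87 TPM. VE_ExE read 16.5, 0 and 17.3 TPM, so 1 of its libraries is listed at 0. Neighbouring groups in the order of Tmsb4x overlapped in 10 of 22 pairs. Tmsb4x was higher in TE (1749 ± 115 TPM (SD, n = 3)) than in ICM (56.8 ± 8.09 TPM (SD, n = 3)), by 4.93 ± 0.45 log2 (SE, limma adjusted p = 4.19e-13). In PrE against Epi of E4.5, which read 539 ± 99.9 TPM (SD, n = 3), the difference was -7.70 ± 0.45 log2 (SE, limma adjusted p = 1.08e-20). That gap was -3.83 (limma adjusted p = 8.55e-10) at E4.75 and -2.81 (limma adjusted p = 8.99e-07) at E5.0. At E5.25 it was -0.37 (limma adjusted p = 0.606), with PrE at 475, 507 and 467 and unsuffixed Epi at 630.3, 629.8 and 612 TPM. In vivo Epi of E5.25, not tested against PrE, lay below PrE, at a mean of 209 TPM. From E4.5 to E5.25 the gap changed by 7.33 ± 0.63 log2 (SE, limma interaction, adjusted p = 1.96e-13). This test of a change in a gap was chosen after the data were seen, and 3 of the 8 members and 15.9% of all genes passed it. The 8 trophoblast markers of PrE also rose: they summed to 124 to 161 TPM in the libraries of E4.5, 300.5 to 307 at E4.75, 1477 to 1548 at E5.0 and 3095 to 3386 at E5.25. Tmsb4x of PrE averaged 1.59, 99.6, 117 and 483 TPM at these ages, so both rose, but by unlike steps. In Epi the 8 trophoblast markers summed to 640.4 to 734 TPM at E4.5 and 798 to 875 at E5.25. Of these markers Cdx2, Elf5, Hand1 and Prl3d1 are listed at 0 in PrE of E4.5, and at E5.25 Cdx2 averaged 0.929 TPM and the keratin Krt8, also made by endoderm, 1269 TPM. Prl3d1 averaged 153 TPM in PrE of E5.0 and 5.52 TPM at E5.25. Eomes averaged 22.9 TPM in PrE of E4.5 and 38.5 TPM at E5.25. Their part in the change of Tmsb4x was not tested. The groups of E4.5 hold the large Rn45s shares given above, and the E4.5 difference was -7.89 log2 with the total taken without Actb and Rn45s.

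In epiblast in vivo Tmsb4x fell from 805 ± 38.2 TPM (SD, n = 3) at E5.0 to 47.1 ± 20.4 TPM (SD, n = 2) at E5.5, a difference of -4.13 ± 0.50 log2 (SE, limma adjusted p = 6.83e-10). Epi of E5.5 in vitro read 30.3, 28.0 and 24.2 TPM. At E5.25 the in vivo group read 172, 216 and 238 TPM and the unsuffixed group 630.3, 629.8 and 612 TPM. That difference was -1.59 (limma adjusted p = 0.00972) and did not pass with a pseudocount of 0.1 TPM. At E5.5 in vitro Tmsb4x was higher in ExE than in Epi by 4.32 ± 0.45 log2 (SE, limma adjusted p = 2.21e-11). It was higher in TGC than in ExE by 1.54 (limma adjusted p = 0.00177), which did not pass with that pseudocount either. The call between VE_ExE and VE_Epi, 1.34 (limma adjusted p = 0.0472), rested on overlapping libraries and was lost with that pseudocount, without the filter on low values, with totals without Actb and Rn45s and in a fit of these groups alone. It was 0.67 without VE_ExE replicate 1, 0.63 without replicate 3 and 0.41 without VE_Epi replicate 1, and passed in none of these. VE_Epi against VE in vitro, -2.33 (limma adjusted p = 3.22e-04), was -1.39 without VE_Epi replicate 1 and did not pass, nor did it in a fit of these groups alone.

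Tmsb10 was the more abundant thymosin in every group, and its group means spanned 45.7-fold. It read 338, 366 and 274 TPM in VE_ExE and 14599, 15897 and 14188 TPM in TGC of E4.75. PrE of E4.5 read 433, 483 and 443 TPM, against 1728, 1988 and 1335 TPM in Epi of E4.5. Tmsb10 was higher in TE (7438 ± 472 TPM (SD, n = 3)) than in ICM (1429 ± 29.2 TPM (SD, n = 3)), by 2.38 ± 0.12 log2 (SE, limma adjusted p = 2.96e-22). In PrE against Epi the difference was -1.87 (limma adjusted p = 1.42e-18) at E4.5 and -1.81 (limma adjusted p = 1.52e-17) at E4.75. It was under the minimum size at E5.0, -0.99 (limma adjusted p = 3.05e-09), and -0.079 (limma adjusted p = 0.705) at E5.25. At E5.25 PrE averaged 3361 TPM, unsuffixed Epi 3544 TPM and in vivo Epi, not tested against PrE, 2678 TPM. From E4.5 to E5.25 this gap changed by 1.79 ± 0.17 log2 (SE, limma interaction, adjusted p = 9.35e-12), over the same ages as the trophoblast markers of PrE given above, whose part here was not tested either. In cultured embryos of E5.5 TGC read 7369.7, 7015, 7451 and 8863 TPM and ExE 2076, 2078 and 2134 TPM, a difference of 1.87 ± 0.11 log2 (SE, limma adjusted p = 5.71e-20). The gap of TGC over ExE was 0.36 (limma adjusted p = 0.07) in the unsuffixed groups of E4.75. The gap in the cultured groups of E5.5 differed from it by 1.51 ± 0.17 log2 (SE, limma interaction, adjusted p = 2.93e-10), a test that 2 of the 8 members and 19.8% of all genes passed. Age and how the embryos were kept cannot be told apart in this test. Between VE_ExE and VE_Epi, which read 592 and 863 TPM, the difference was -1.14 (limma adjusted p = 5.62e-09). Without VE_Epi replicate 2 it was -0.87 and did not pass, nor did it under median-ratio scaling (-0.99) or in a fit of these groups alone (-1.14). Against VE in vitro, at 1006, 1091 and 909.7 TPM, VE_ExE differed by -1.62 ± 0.12 log2 (SE, limma adjusted p = 7.12e-16). Both thymosins together had 2.00 times the TPM of Actb and Actg1 together in in vivo Epi of E5.0 and 0.00267 times in VE_ExE.

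Pfn1 (chromosome 11, 70651850 to 70654644, minus strand), profilin, had the narrowest range of the 9, with group means 3.09-fold apart. It read 5286, 5935, 6463 and 6473 TPM in cultured TGC of E5.5, the highest group. The 2 lowest groups were the 2 ends of the Actb order, VE_ExE at 2132, 1719 and 2019.6 TPM and in vivo Epi of E5.0 at 2329, 2343 and 2314 TPM. Pfn1 passed in 0 of 18 comparisons, since no limma difference reached the minimum size. Its unadjusted p was under 0.05 in 14 of 18 and its adjusted p in 12. Among these were TE against ICM, 0.88 (limma adjusted p = 4.02e-12), TGC against ExE of E5.5 in vitro, 0.84 (limma adjusted p = 5.24e-13), and in vivo against unsuffixed Epi of E5.0, -0.88 (limma adjusted p = 4.58e-12). Median-ratio scaling took TE against ICM to 1.06 and TGC against ExE to 1.85, past the minimum size, and turned the step from Epi of E5.0 to E5.5 in vivo from 0.38 to -0.21.

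Cfl1 (chromosome 19, 5490455 to 5495201, plus strand), cofilin, was lowest in the 4 groups of E5.5 in vivo, which overlapped no group of E5.5 in vitro. VE_ExE read 1363, 1074 and 999.6 TPM and VE_Epi 1429 and 1510.1 TPM. Epi in vivo read 1534 and 1434 TPM and ExE in vivo 1659 and 1652 TPM, while the lowest library of E5.5 in vitro was at 2317 TPM. The highest group was PrE of E4.5, at 5290.4, 5701 and 5186 TPM, 4.71-fold over the lowest. Cfl1 passed in VE_ExE against VE in vitro, from 2547 ± 37.9 TPM (SD, n = 3), at -1.16 ± 0.068 log2 (SE, limma adjusted p = 6.29e-20), and was -0.68 under median-ratio scaling, short of the minimum size. In vivo against in vitro it was -0.79 (limma adjusted p = 9.98e-12) for VE_Epi, -0.83 (limma adjusted p = 2.36e-12) for Epi and -0.60 (limma adjusted p = 3.24e-08) for ExE, all short of it. From Epi of E5.0 to E5.5 in vivo it was -0.95 (limma adjusted p = 2.07e-15), and -1.01 with the total taken without Actb and Rn45s, which passed. The ratio of Cfl1 to Pfn1 ran from 0.411 in cultured TGC of E5.5 to 1.66 in in vivo Epi of E5.25.

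Ezr (chromosome 17, 6738041 to 6782784, minus strand), ezrin, which links filaments to the cell membrane, had group means 9.40-fold apart. It read 29.0 and 30.1 TPM in Epi of E5.5 in vivo and 285, 249 and 299.6 TPM in VE of E5.5 in vitro. TE of E3.5, at 28.5, 33.7 and 40.5 TPM, and TE of E4.5, at 42.0, 43.4 and 43.9 TPM, were the next lowest. In TE against ICM the difference was -1.41 ± 0.18 log2 (SE, limma adjusted p = 9.38e-09), opposite to the thymosins and Myl6. In cultured embryos of E5.5 Ezr was higher in VE than in Epi, which read 52.8, 62.6 and 37.5 TPM, by 2.45 ± 0.18 log2 (SE, limma adjusted p = 1.34e-16). It was higher in ExE than in Epi by 1.95 (limma adjusted p = 7.03e-13). Unsuffixed Epi of E5.0 read 248, 259.6 and 247 TPM, the next to highest group, and in vivo Epi of E5.0 42.1, 43.9 and 47.1 TPM, a difference of -2.48 ± 0.18 log2 (SE, limma adjusted p = 3.58e-16). Visceral endoderm in vivo was lower than VE in vitro, with a difference of -1.19 (limma adjusted p = 2.85e-07) for VE_ExE and -1.11 (limma adjusted p = 2.93e-05) for VE_Epi. Under median-ratio scaling these were -0.70 and -0.77, short of the minimum size. The sign of Ezr was that of Actb in VE and ExE against Epi and in the E5.0 pair, and the opposite in TE against ICM and in visceral endoderm in vivo.

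Vil1 (chromosome 1, 74409376 to 74435559, plus strand), villin, which bundles the filaments of microvilli, was highest in the 7 PrE and VE groups. In PrE it read 6.40, 5.66 and 7.24 TPM at E4.5, 11.7, 11.6 and 11.7 at E4.75, 25.8, 21.2 and 20.8 at E5.0 and 36.5, 27.8 and 28.8 at E5.25. No library of 1 age overlapped the next along these 4 ages. VE of E5.5 in vitro read 67.4, 73.9 and 64.4 TPM, VE_Epi 31.3 and 31.6 TPM and VE_ExE, with a wide spread, 74.2, 14.5 and 34.7 TPM. Outside endoderm it was highest in ExE of E5.5 in vitro, at 3.02, 3.99 and 2.72 TPM. It is listed at 0 in all libraries of Epi of E4.75, TE of E3.5 and TE of E4.5, and had a mean under 1 TPM in 14 of the 23 groups. Vil1 was higher in PrE than in Epi by 2.62 ± 0.33 log2 (SE, limma adjusted p = 4.09e-09) at E4.5 and by 4.70 ± 0.33 log2 (SE, limma adjusted p = 4.34e-17) at E5.25, and the gap widened by 2.08 ± 0.47 log2 (SE, limma interaction, adjusted p = 8.36e-04). In VE against Epi of E5.5 in vitro it was higher by 5.996 ± 0.33 log2 (SE, limma adjusted p = 2.39e-21).

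In trophoblast Vil1 was higher in ExE of E4.75, at 1.47, 1.02 and 1.09 TPM, than in Epi, listed at 0 (limma adjusted p = 0.0153), a call lost without ExE replicate 1. The 8 endoderm markers summed to 598 to 659 TPM in these libraries of ExE and to 175 to 192 TPM in those of Epi. In ExE against Epi of E5.5 in vitro it was 1.95 (limma adjusted p = 5.19e-06). Endoderm markers moved the same way, with 737 to 850.3 TPM in ExE and none at 0, and 6.89 to 12.5 TPM in Epi, where Pdgfra, Sox17 and Afp are listed at 0. TGC of E5.5 in culture was lower than ExE, with a difference of -1.995 (limma adjusted p = 3.24e-07), and this gap differed from that of E4.75 by -1.55 ± 0.46 log2 (SE, limma interaction, adjusted p = 0.00861). The groups of E4.75 carry no suffix, so age and how the embryos were kept cannot be told apart here. Endoderm markers were at 2.70 to 10.1 TPM in this TGC, with Ttr listed at 0, and at 121 to 133 TPM in TGC of E4.75. ExE in vivo was lower than ExE in vitro, with a difference of -1.53 (limma adjusted p = 0.0021), which was -1.16 without in vivo replicate 1 and did not pass there or in a fit of these groups alone. That difference and the one in Epi were -1.95 ± 0.53 log2 (SE, limma interaction, adjusted p = 0.00896) apart, in a test that Vil1 alone of the 8 and 10% of all genes passed. In ExE in vivo endoderm markers summed to 4.23 to 11.8 TPM, with Gata6 and Gata4 listed at 0 and Ttr at 0.575 TPM, where ExE in vitro had 90.3 TPM of Ttr. In Epi in vivo they summed to 43.6 to 66.9 TPM. Vil1 thus moved with the endoderm markers in these comparisons of ExE, and their part in its differences was not tested. VE_Epi and VE_ExE in vivo were lower than VE in vitro, with differences of -1.10 (limma adjusted p = 0.0241) and -1.004 (limma adjusted p = 0.0115). Neither passed with the smaller pseudocount (-1.12 and -1.03), under median-ratio scaling (-0.76 and -0.53), with totals without Actb and Rn45s (-0.995 and -0.86) or without VE in vitro replicate 2 (-1.04 and -0.95). The VE_Epi call was also lost without either of its libraries, and VE_ExE was -0.42 without its replicate 2.

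Myl6 (chromosome 10, 128490860 to 128494145, minus strand), a light chain of non-muscle and smooth muscle myosin, was lowest in Epi of E5.5 in vivo, at 297 and 347 TPM, and ExE of E5.5 in vivo, at 342 and 358 TPM. It was highest in TE of E4.5, at 3954, 3776 and 3759 TPM, followed by PrE of E5.25, at 2344, 2541 and 2464 TPM, and TE of E3.5, at 2368, 2329 and 2381 TPM. TE of E3.5 and PrE of E5.25 overlapped each other, and none of the 3 overlapped any other group. Myl6 was higher in TE of E3.5 (2359 ± 27.1 TPM (SD, n = 3)) than in ICM (788 ± 37.3 TPM (SD, n = 3)), by 1.58 ± 0.097 log2 (SE, limma adjusted p = 2.50e-19). In PrE against Epi it was 0.77 (limma adjusted p = 2.76e-09) at E4.5 and 0.61 (limma adjusted p = 1.21e-06) at E4.75, short of the minimum size. It passed at E5.0, 1.42 (limma adjusted p = 9.39e-18), and E5.25, 1.73 (limma adjusted p = 3.59e-21). The widening from E4.5 to E5.25, 0.96 ± 0.14 log2 (SE, limma interaction, adjusted p = 2.71e-07), fell short of the minimum size. From Epi of E5.0 to E5.5 in vivo Myl6 fell, with a difference of -1.21 ± 0.11 log2 (SE, limma adjusted p = 7.71e-14), opposite to Actb. In Epi of E5.0 the in vivo group read 769, 750.1 and 707 TPM and the unsuffixed group 696, 836 and 706 TPM. That difference was -0.0040 (limma adjusted p = 1.0), where Actb differed by -3.49, and median-ratio scaling put it at 0.66.

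**Figure D4:**
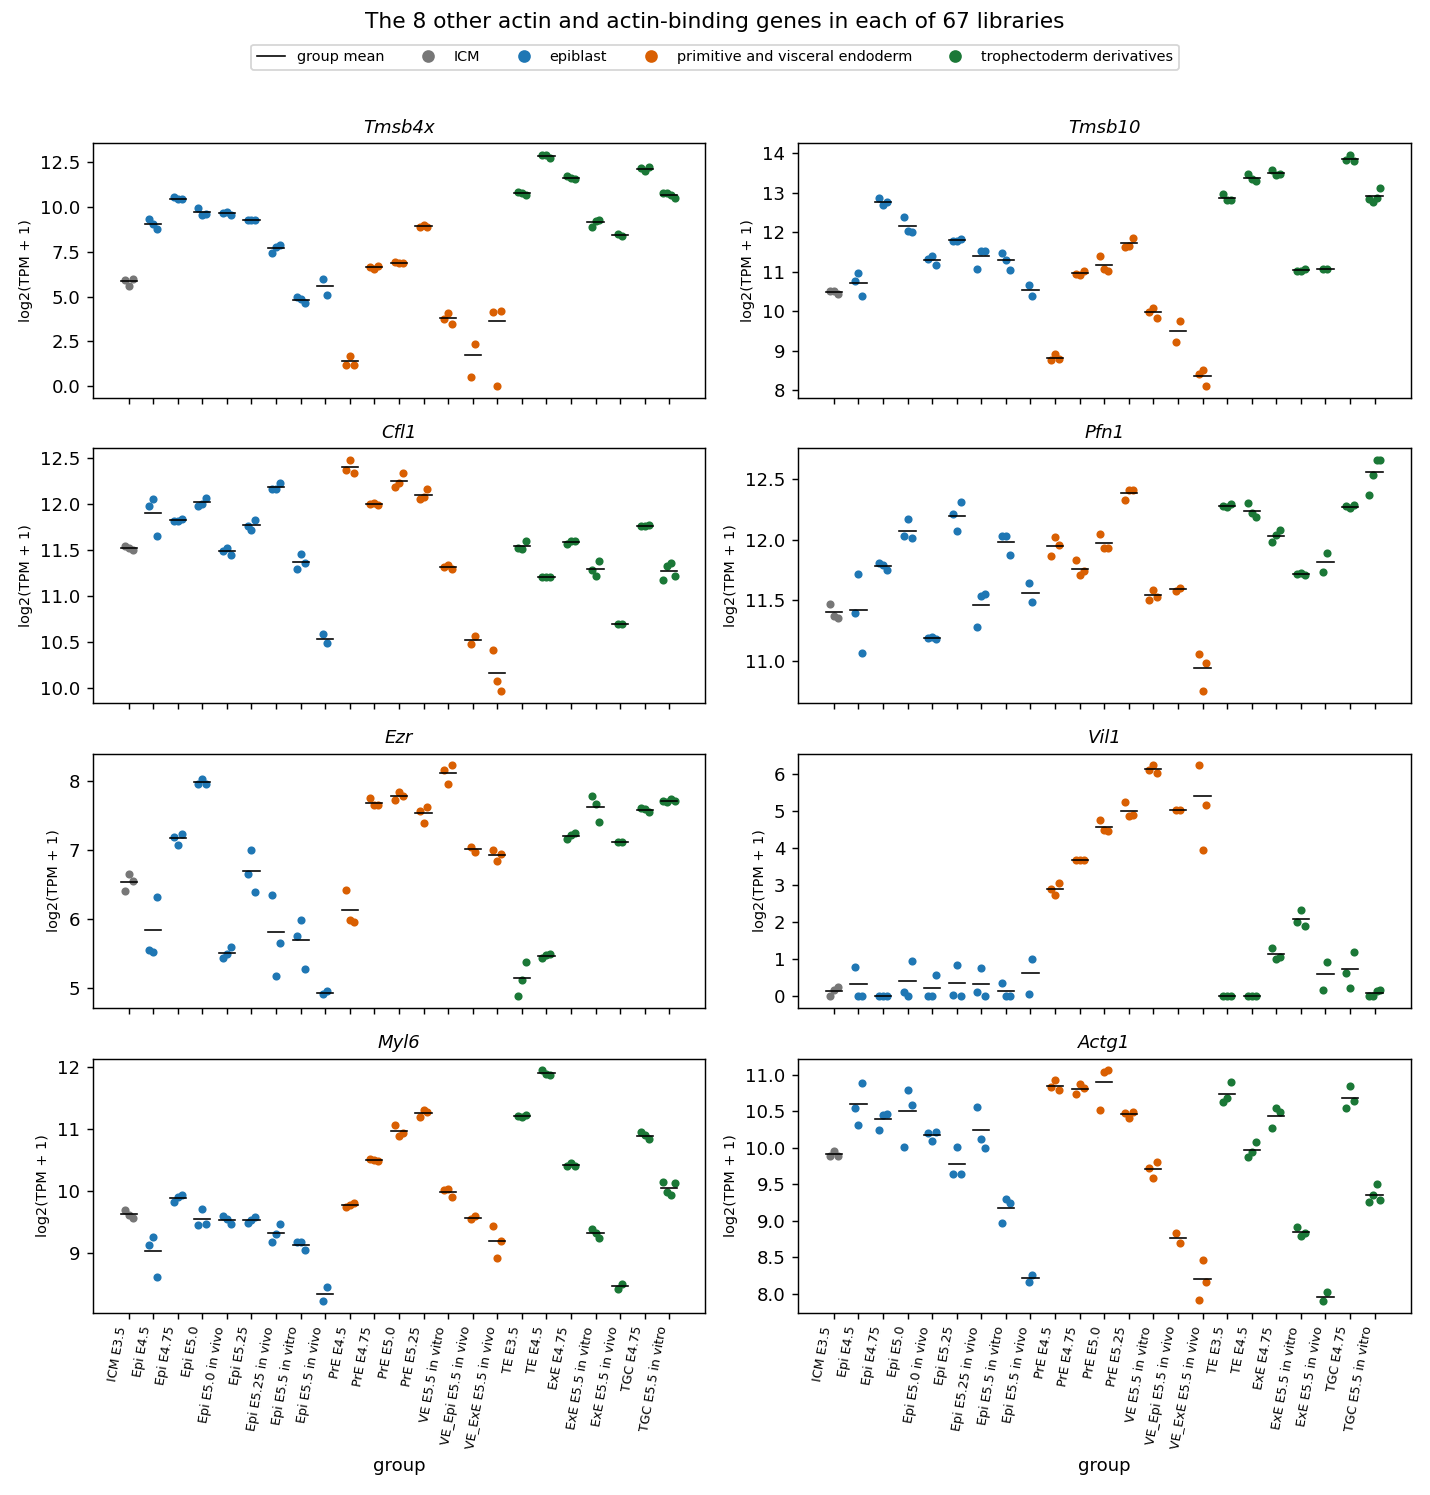
The 8 other genes by group on a log2(TPM + 1) scale, with 1 point per library, a line at the group mean and colours by tissue. Tmsb4x and Tmsb10 peak in trophoblast (group means up to 7408 and 14895 TPM) and Vil1 in endoderm (up to 68.6 TPM).

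Actin genes are textbook targets of the serum response factor SRF, which binds a short palindromic element called the CArG box and whose partner MRTF is held back by actin monomers. The box, whose general pattern is the same on both strands, was searched in the 250 bases before each start site. RefSeq promoter windows of GRCm38.p6 were used, where 8 of the 9 genes have a window. Actb has none, so its upstream sequence was not searched. The box was found for 3 of the 8, Actg1, Vil1 and 1 of 2 start sites of Myl6, and for 1.62% of all 27025 genes with a window. Across the 23 groups r was -0.071 between Actg1 and Vil1, 0.63 between Actg1 and Myl6 and 0.16 between Vil1 and Myl6. The stretches of Actg1 and Vil1 are shown because the only window of each holds the box, and capitals mark it.
Actg1, chr11:120348566-120348595, minus strand: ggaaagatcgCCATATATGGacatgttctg
Vil1, chr1:74409301-74409330, plus strand: ccctatcttcCCTTATATGGtgaaggaagt

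The box began 90 bases before the start site of Actg1 and 73 before that of Vil1. A match describes the letters and is not a measured site. Of 6 tested genes of an SRF list (Srf, Tagln, Tagln2, Cnn1, Cnn2 and Cnn3), 5 had a negative r with Actb, and Srf itself had 0.27 over the 23 groups. A negative r was held by 50.5% of all genes. From Epi of E5.0 to E5.5 in vivo 3 of the 6 fell and none rose, with a median of -1.96 log2 against 0.043 over all genes. In that step 24.7% of all genes were higher and 11.2% lower. Tagln2, a transgelin that binds filaments, went to 10.1 against 187 TPM (log2 -4.21, limma adjusted p = 7.56e-24) in that step.

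By r over the 23 group means, among 6322 genes averaging 10 TPM or more, the 5 genes most like Actb were Nsd3 (0.97), Tex2 (0.97), Agpat1 (0.96), Gsk3b (0.96) and Actr2 (0.96). Actr2, the Arp2 subunit of the Arp2/3 complex, ran from 12.1 TPM in in vivo Epi of E5.0 to 2434 TPM in TGC of E5.5 in vitro. Gsk3b, a kinase of the WNT pathway, ran from 0.738 TPM in the same Epi to 562 TPM in VE_Epi. The 3 least like Actb were Cops3 (-0.93), Eif4a3 (-0.92) and Tfb1m (-0.90). For Actg1 the 3 most alike were Slc35b1 (0.95), Tmem14c (0.92) and Spint2 (0.91). Across genes, which are not independent of each other, r with Actb moved with transcript length. With genes put in 4 equal classes by their longest transcript, the median r was -0.14 in the shortest class (up to 1838 bases) and 0.21 in the longest (4448 bases or more). The longest transcript has 1920 bases for Actb, 1952 for Actg1, 864 for Tmsb4x and 690 for Tmsb10, and the part of length in these values was not tested.

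Beyond the 9 genes, 71 tested genes of actin biology were taken in 7 lists: other actins, Arp2/3 and nucleation, monomer binding and turnover, crosslinkers with the ezrin family, microvilli, myosin with tropomyosin, and SRF targets. In the nucleation list r with Actb ran from -0.69 for Brk1, a subunit of the WAVE complex, to 0.96 for Actr2. The highest of 3 other lists were Twf1, a twinfilin that binds monomers (0.93), Myh9, a non-muscle myosin heavy chain (0.93), and Actn1, an actinin that crosslinks filaments (0.80). The 4 other actins tested had r between -0.17 (Actc1) and -0.020 (Acta1). Of 11 genes often used as references for expression, 8 had a negative r, where 50.5% of all genes did. The 11 ran from -0.77 for Ppia to 0.66 for Tubb5.

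From Epi of E5.0 to E5.5 in vivo 25 of the 71 rose and 17 fell, with a median of 0.15 against 0.043 over all genes, where 24.7% of all genes were higher and 11.2% lower. Actr2 rose, at 1221 against 12.1 TPM (log2 6.53, limma adjusted p = 3.84e-28). Twf1, at 804 against 14.5 TPM (log2 5.69, limma adjusted p = 4.27e-24), and Myh9, at 65.4 against 2.73 TPM (log2 4.14, limma adjusted p = 4.16e-16), rose as well. Arpc3, at 3.12 ± 4.41 (SD, n = 2) against 199 TPM (log2 -6.21, limma adjusted p = 4.05e-19), and Arpc1b, at 3.93 ± 5.56 (SD, n = 2) against 97.0 TPM (log2 -5.03, limma adjusted p = 1.45e-16), fell. Both SDs at E5.5 exceeded their means, so the libraries lay far apart and near 0, and the size of these falls is uncertain. Actr2, Arpc3 and Arpc1b encode subunits of 1 complex, so members of 1 complex went both ways in this step, with that limit. The Rn45s share was 9.33% in the E5.0 group and 0.159% in the E5.5 group, and its part in these changes was not tested. Under median-ratio scaling 16 were higher and 21 lower (of all 15567 genes 2967 and 2734), and the 5 genes just named passed in the same direction. In in vivo against unsuffixed Epi of E5.0 2 of 71 were higher and 28 lower, with a median of -0.81 against -0.39 over all genes, where 1.97% of all genes were higher and 23.1% lower. The actinin Actn4 was at 10.2 against 183 TPM (log2 -4.11, limma adjusted p = 3.07e-18) there, and Actr2 at 12.1 against 104 TPM (log2 -2.82, limma adjusted p = 6.30e-15). Under median-ratio scaling 8 were higher and 16 lower (of all 15567 genes 1156 and 2037). In Epi of E5.5 in vivo against in vitro 4 were higher and 24 lower, with a median of -0.55 against -0.18 over all genes, where 6.73% of all genes were higher and 15.1% lower. Under median-ratio scaling 5 were higher and 17 lower (of all 15567 genes 1389 and 1702). Actr2 was at 1221 against 435 TPM (log2 1.51, limma adjusted p = 4.41e-06) there and Arpc1b at 3.93 ± 5.56 (SD, n = 2) against 28.6 TPM (log2 -3.31, limma adjusted p = 1.09e-09).

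In TE against ICM 26 of 71 were higher and 5 lower, with a median of 0.56 against -0.060 over all genes, where 5.92% of all genes were higher and 7.62% lower. Pdzk1, a scaffold of the brush border, was at 67.9 against 2.05 TPM (log2 4.54, limma adjusted p = 4.52e-10). Lcp1, a plastin that bundles filaments, was at 241 against 22.0 TPM (log2 3.40, limma adjusted p = 9.14e-08), and Fscn1, the bundler fascin, at 4.52 against 47.8 TPM (log2 -3.14, limma adjusted p = 2.86e-13). In PrE against Epi 14 were higher and 13 lower at E4.5, 10 and 12 at E4.75, 16 and 9 at E5.0, and 22 and 6 at E5.25. Of all genes 11.7% and 16.9% were higher and lower at E4.5, 8.69% and 8.31% at E4.75, 11.7% and 12.8% at E5.0 and 9.94% and 11.2% at E5.25. The 13 lower at E4.5, 18.3% of the 71, were thus near the share of all genes. The medians of the 71 were 0.18, -0.10, 0.15 and 0.50, and those of all genes -0.20, -0.082, -0.075 and -0.099. In VE against Epi of E5.5 in vitro 22 were higher and 9 lower, with a median of 0.67 against 0 over all genes, where 17.3% of all genes were higher and 11.3% lower. Under median-ratio scaling 17 were higher and 9 lower (of all 15567 genes 2181 and 1862). Pdzk1 was among the 3 highest in all 5, from 81.1 against 5.72 TPM (log2 3.62, limma adjusted p = 1.44e-07) at E4.75 to 95.9 against 0.648 TPM (log2 5.93, limma adjusted p = 7.03e-14) at E5.25. Msn, the ezrin relative moesin, was lower in PrE, where Ezr did not pass, at 7.83 against 42.9 TPM (log2 -2.95, limma adjusted p = 5.11e-06) at E4.5 and 8.89 against 52.2 TPM (log2 -2.44, limma adjusted p = 1.54e-04) at E5.25. In VE, where Ezr was higher, Msn was at 3.62 against 57.8 TPM (log2 -3.94, limma adjusted p = 8.80e-09).

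In cultured ExE against Epi of E5.5 20 of 71 were higher and 10 lower, with a median of 0.56 against 0.020 over all genes, where 12.1% of all genes were higher and 8.67% lower. Under median-ratio scaling 14 were higher and 10 lower (of all 15567 genes 1467 and 1343). The highest were Lcp1, at 110.4 against 2.25 TPM (log2 5.33, limma adjusted p = 1.84e-13), and Gsn, the severing and capping protein gelsolin, at 54.3 against 1.51 TPM (log2 4.83, limma adjusted p = 1.66e-09). The endoderm markers given for these groups beside Vil1 were also higher in ExE, and their part in these counts was not tested. In cultured TGC against ExE 9 were higher and 21 lower, with a median of 0 against -0.51 over all genes, where 6.28% of all genes were higher and 31.5% lower. Under median-ratio scaling 30 were higher and 10 lower, so the balance of these genes turned with the scaling. Of all 15567 genes 2258 were then higher and 2179 lower, so the balance of all genes moved with it too. Tpm2, a tropomyosin, was at 94.3 against 7.14 TPM (log2 3.56, limma adjusted p = 2.30e-11), and the capping protein Capg at 2095 against 432 TPM (log2 2.27, limma adjusted p = 8.84e-06). Pls3, a plastin, was at 2.50 against 53.7 TPM (log2 -3.97, limma adjusted p = 2.83e-15), and these 3 passed in the same direction under both scalings. In VE_ExE against VE in vitro 9 were higher and 27 lower, with a median of -0.51 against -0.41 over all genes, where 5.88% of all genes were higher and 28% lower. Of the microvillus genes, Espn, the bundler espin, was at 1.72 against 54.4 TPM (log2 -4.70, limma adjusted p = 6.42e-11) and Pdzk1 at 159.9 against 30.0 TPM (log2 2.25, limma adjusted p = 3.13e-04), so they went opposite ways in the comparison where Ezr and Vil1 were lower. In VE_Epi against VE in vitro 8 were higher and 17 lower, with a median of -0.56 against -0.21 over all genes, where 5.33% of all genes were higher and 12.8% lower. Espn was at 5.82 against 54.4 TPM (log2 -3.02, limma adjusted p = 4.91e-05) there and Pdzk1 at 207 against 30.0 TPM (log2 2.71, limma adjusted p = 3.00e-04). Under median-ratio scaling 10 were higher and 21 lower in the first of these comparisons, and 11 were higher and 12 lower in the second. Of all 15567 genes 1529 were then higher and 2892 lower in the first, and 1168 higher and 1048 lower in the second.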

How the data were processed

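RNA was measured by Smart-seq2, per the series' design text, and the authors deposited 1 table of TPM for 25006 genes in 67 libraries. The submitters' processing notes name HISAT2 (2.2.1), StringTie (2.2.1), Cufflinks and the build mm10. Which step each tool did, the annotation, the use of strand and the treatment of reads with several matches are not given in the sources used here. TPM columns summed to 985702 to 996469. TPM keeps no depth, so the counting error is unknown, and a value of 0 may be a failed estimate.

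Values were analysed as log2(TPM + 1), which understates differences between low values. Of all genes, 15567 reached 1 TPM in 3 libraries or more. Their group means over all 67 libraries were fitted with limma (3.58.1, R 4.3.3), using a trend for the variance, and p-values were adjusted by Benjamini-Hochberg over all genes kept. A gene passed with an adjusted p below 0.05 and a log2 difference of 1 or more in either direction. The labels' protocols speak of biological replicates, but not of separate embryos, so p-values measure the spread between libraries, which may be technical. The fit was tested on simulated data. Positions and coding sequences come from GENCODE on GRCm38, and upstream windows from RefSeq on GRCm38.p6. Figures were drawn with python 3.11.15.

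The members and lists were chosen with earlier results of these data known. Named were all 9 members, the 5 genes of highest and 3 of lowest r with Actb, the 3 of highest r with Actg1, and up to 3 genes per direction and comparison of the other lists. Each difference of a member between 2 groups was recomputed under other settings. These were a pseudocount of 0.1 TPM, no filter, totals taken without Actb and Rn45s, and median-ratio scaling. Further settings were a fit of the compared groups alone, the replicate number as a block, no minimum size, and each library of those groups left out in turn. Correlations with Actb were recomputed as given below. Genes of the other lists were refitted with median-ratio scaling only. The differences between differences were fitted under the main setting only, so their dependence on the processing was not tested.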

Additional observations from a re-analysis of the deposited data

Results flagged for a closer look

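Of 24 differences between differences tested over the 8 members, a set chosen after the data were seen, 6 passed the threshold of the limma interaction term. All 24 were fitted under the main setting only. Of all genes 15.9% passed it for PrE against Epi, 19.8% for TGC against ExE and 10% for in vivo against in vitro. The gap between PrE and Epi, unsuffixed at E5.25, differed between E5.25 and E4.5 by 7.33 log2 for Tmsb4x, 2.08 for Vil1 and 1.79 for Tmsb10. The 8 trophoblast markers summed to 124 to 161 TPM in the libraries of PrE of E4.5 and to 3095 to 3386 TPM at E5.25, and their part in the changes of the thymosins was not tested. The gap between TGC and ExE differed between E5.5 in vitro and unsuffixed E4.75 by 1.51 for Tmsb10 and -1.55 for Vil1, where age and how the embryos were kept cannot be told apart. The difference between embryos in vivo and in vitro at E5.5 was apart by -1.95 for Vil1 between ExE and Epi, at group means of at most 3.24 TPM. The 8 endoderm markers summed to 737 to 850.3 TPM in the libraries of ExE in vitro and to 4.23 to 11.8 TPM in vivo, and to 2.70 to 10.1 TPM in TGC in vitro. Their part in the differences of Vil1 was not tested. No library stood apart by Dixon's test in the 1 group with 4 libraries, TGC of E5.5 in vitro, over the 9 genes.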

How the results depend on the processing

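None of the 41 differences that passed changed sign under any alternative. With the minimum size kept, 21 values lost the threshold and 13 gained it under the settings that left out no library of the compared groups. With 1 library left out 12 lost and 12 gained it. With no minimum difference the members that passed became 6, 7, 6 and 5 of 8 in PrE against Epi from E4.5 to E5.25, 6 in VE against Epi, 5 in ExE against Epi of E4.75, 1 and 6 in TGC against ExE of E4.75 and E5.5, 4, 6 and 6 in Epi in vivo against the other Epi of E5.0, E5.25 and E5.5, 4 in ExE in vivo against in vitro, 6 in VE_ExE against VE_Epi, 7 in VE_Epi against VE and 7 in Epi of E5.5 against E5.0. Of all 15567 genes 5736, 3845, 5192, 4635, 5886, 1943, 1090 and 7398 passed with no minimum difference in these comparisons up to TGC against ExE of E5.5. In the rest 5103, 2364, 4417, 2450, 3223, 3791 and 6444 passed, in the order given. Median-ratio scaling, which moved the median of all genes by over 0.1 log2 in comparisons such as TGC against ExE of E5.5 (from -0.51 to 0), gave 7 there, 1 in VE_ExE against VE_Epi, 2 and 1 in VE_ExE and VE_Epi against VE, and 6 in Epi of E5.5 against E5.0. Of all genes 4437, 2347, 4421, 2216 and 5701 passed under it, in that order. VE_ExE against VE_Epi also gave 1 with a pseudocount of 0.1 TPM, 1 without the filter, 1 with totals without Actb and Rn45s, 0 in a fit of the 2 groups and 1 to 2 with 1 library left out. The pseudocount gave 0 in Epi of E5.25, and fits of only the groups compared gave 2 in ExE against Epi of E4.75 and 0 in ExE of E5.5. Leaving out 1 library gave 0 to 1 in ExE against Epi of E4.75, 1 to 2 and 0 to 1 in Epi of E5.25 and E5.5, and 0 to 1 in ExE of E5.5; the cause was not tested.

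Replicate numbers were not taken to pair libraries, since in 0 of 18 comparisons every pair of deviations had a correlation over 0.1. At E5.0, however, the ratio of Actb to Actg1 in replicates 1 to 3 was 8.16, 2.90 and 3.04 in unsuffixed Epi. In PrE of E5.0 it was 7.91, 3.27 and 3.29, and replicate 1 had the lowest Rn45s share in both groups. At E4.75 replicate 1 had the highest such ratio and the lowest Rn45s share in Epi, PrE, ExE and TGC. The labels do not say whether a number marks a shared embryo or day. With the replicate block VE_ExE against VE_Epi had 1 call, Tmsb4x being lost at 1.33, and no other call of a member changed.

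The median r of the 8 with Actb was -0.058 over libraries, -0.27 over deviations from group means and 0.0107 without the groups of highest and lowest Actb. Over alternatives chosen after the data were seen it was 0.49 before E5.5, -0.33 at E5.5, -0.41 without the 3 groups of largest Rn45s share and 0.55 before E5.5 without them, and that of Actg1 turned to 0.12 and 0.53 in the groups before E5.5. Uncalled differences changed sign under median-ratio scaling for Actg1 at 0.37 and Tmsb4x at 0.62 and Cfl1 at 0.13 and Myl6 at 0.66 in in vivo against unsuffixed Epi of E5.0, Tmsb10 at 0.041 in PrE against Epi of E5.25, Cfl1 at 0.99 in TGC against ExE of E5.5, Pfn1 at 0.035 in PrE against Epi of E4.75, Pfn1 at 0.039 in PrE against Epi of E5.0, Pfn1 at -0.21 in Epi of E5.5 against E5.0 in vivo, Ezr at 0.065 in VE_ExE against VE_Epi, Vil1 at 0.025 in in vivo against unsuffixed Epi of E5.25. With totals without Actb and Rn45s the sign changed for Tmsb4x at 0.084 and Myl6 at 0.12 in in vivo against unsuffixed Epi of E5.0, Cfl1 at 0.00204 in TGC against ExE of E5.5, and with the pseudocount for Vil1 at 0.094 in in vivo against unsuffixed Epi of E5.25. With 1 library left out the sign changed within the ranges of Actg1 (-0.026 to 0.13, ExE against Epi of E4.75), Tmsb4x (-0.12 to 0.085, in vivo against unsuffixed Epi of E5.0), Tmsb4x (-1.70 to 0.40, VE_ExE in vivo against VE in vitro), Cfl1 (-0.0079 to 0.038, TE against ICM), Cfl1 (-0.062 to 0.017, TGC against ExE of E5.5), Pfn1 (-0.058 to 0.0059, PrE against Epi of E4.75), Ezr (-0.00379 to 0.072, ExE against Epi of E4.75), Ezr (-0.0097 to 0.18, TGC against ExE of E5.5), Vil1 (-0.36 to 0.13, in vivo against unsuffixed Epi of E5.0), Vil1 (-0.24 to 0.26, in vivo against unsuffixed Epi of E5.25), Vil1 (-0.057 to 0.89, Epi of E5.5 in vivo against in vitro), Vil1 (-0.47 to 0.67, VE_ExE against VE_Epi), Vil1 (-0.12 to 0.82, Epi of E5.5 against E5.0 in vivo), Myl6 (-0.052 to 0.080, in vivo against unsuffixed Epi of E5.0). Depth is unknown, and levels near 0 such as those of Vil1 outside endoderm limit any fold.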
